A study of Homo sapiens with 4 samples.

Results

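Chromosome 10 carries 56 widely expressed genes in a list drawn up for the present description, 31 on the short arm (10p, LARP4B to EPC1) and 25 on the long arm (10q, CCDC6 to BCCIP), and the question was whether either arm shifted as a block when ADAR was targeted. The list was chosen with earlier values from these same arrays known, namely detection and the differences between groups, and it states no numerical threshold. Counts over its members are therefore a description and are not evidence on their own. The cells were H358, an established human lung adenocarcinoma line, and total RNA was read on Illumina HT-12 BeadChips, on which each probe is a mean over many beads. There were 2 arrays of cells transfected with ADAR shRNA and 2 arrays of cells transfected with scrambled sequences, with no other treatment, time or genotype in the labels. All 4 are labelled H358, and whether the 2 groups held the same cells was not tested. The labels do not say whether the replicates were separate cultures or how many hairpins or clones were used. The p-values then measure only the spread between these samples, which may be technical.

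ADAR encodes an enzyme that deaminates adenosine to inosine in double-stranded RNA, and a short hairpin RNA directs the breakdown of a matching transcript. A chromosome arm is not a pathway: its genes share a location and, in a tumour line, may share a copy number. Gains and losses of whole arms are common in carcinoma lines, and they shift the transcripts of many neighbouring genes by modest amounts in one direction, whatever the genes do. The genes listed here encode parts of the machinery most cells use, such as ribosome assembly factors, chromatin regulators, vesicle traffic GTPases, mitochondrial enzymes, lysosomal hydrolases and chaperones.

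Of the 56 genes, 54 had at least 1 probe in the platform annotation, 93 probes in all. CCDC6, a coiled-coil protein fused to RET in some tumours, and UBE2D1, a ubiquitin-conjugating enzyme, had no probe listed in the annotation used here. VDAC2, a channel of the outer mitochondrial membrane, had 1 probe, which was not above background on any array. The other 53 genes, all 31 on 10p and 22 on 10q, had a probe with a detection p under 0.05 on at least 2 arrays and were tested, and 50 of them were detected on all 4 arrays. The exceptions were EPC1 and SUV39H2, each detected on 2 arrays, and PDCD11, detected on 3. Levels below are log2 intensities after background correction and quantile normalization, of the brightest probe of each gene. Differences are ADAR shRNA minus scrambled on that log2 scale, with a moderated standard error (SE). A gene rose or fell where limma's adjusted p over all 12197 tested genes was under 0.05.

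The arrays differed widely between the groups, which bears on every value below. Correlations of normalized levels over genes were 0.987 within the ADAR shRNA pair and 0.984 within the scrambled pair, against 0.763 to 0.794 across groups, and genes are not independent replicates. Of all tested genes 57.6% changed, with 25.5% rising and 32.1% falling. The upper quartile of raw signal was 94.5 and 92.1 on the ADAR shRNA arrays, against 143 and 115 on the scrambled arrays, so the ADAR shRNA arrays were the dimmer pair before scaling. ADAR itself read 9.94 and 10.24 on the ADAR shRNA arrays, against 10.93 and 11.27 on the scrambled arrays, and fell by 1.01 (SE 0.21, adjusted p = 0.00341). Over the mean of all its detected probes the ADAR difference was smaller, at -0.60 (adjusted p = 0.025). Of 6 epithelial markers 5 fell: EPCAM and CDH1, which mark epithelial cells, were detected on both scrambled arrays and on neither ADAR shRNA array, and the summed level of the 6 was 3211 and 2858 on the ADAR shRNA arrays, against 19198 and 21871 on the scrambled arrays, on a linear scale. NKX2-1, a lung lineage factor, was detected on the scrambled arrays only, and the other 4 lung epithelial markers were detected on no array. Of 5 mesenchymal markers 1 rose and 1 fell, and the summed level of the 3 tested was 5527 and 4774 on the ADAR shRNA arrays, against 5908 and 3492 on the scrambled arrays. Among blood cell markers, PTPRC and CD3E were detected on no array and CD14 rose by 4.02, and the one endothelial marker tested of 3, PECAM1, differed by -0.42 and did not pass. The part of these marker differences in the results below was not tested.

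The start regions of 4 genes are shown first, those with the highest and the lowest difference on each arm among genes with an entry in the RefSeq promoter table, so that the starts of genes at either end of the range can be read side by side. Each run is the 250 bases upstream of the first start listed for the gene (GRCh38.p14), and a gene may have others. Bases are in lower case 5′ to 3′ on the gene's strand, with CG dinucleotides in capitals.
RAB18, chr10:27504054-27504303, plus strand, highest on 10p: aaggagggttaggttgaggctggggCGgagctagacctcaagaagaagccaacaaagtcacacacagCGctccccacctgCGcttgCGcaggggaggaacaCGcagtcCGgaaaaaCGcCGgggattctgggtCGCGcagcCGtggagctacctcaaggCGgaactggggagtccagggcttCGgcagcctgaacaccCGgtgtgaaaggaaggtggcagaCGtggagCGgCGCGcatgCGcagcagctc
NET1, chr10:5446301-5446550, plus strand, lowest on 10p: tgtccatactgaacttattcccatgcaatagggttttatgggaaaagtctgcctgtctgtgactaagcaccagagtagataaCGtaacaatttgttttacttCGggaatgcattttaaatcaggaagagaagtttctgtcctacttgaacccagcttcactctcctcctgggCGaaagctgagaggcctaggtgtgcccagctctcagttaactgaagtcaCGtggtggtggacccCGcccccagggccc
NT5C2, chr10:103153822-103154071, minus strand, highest on 10q: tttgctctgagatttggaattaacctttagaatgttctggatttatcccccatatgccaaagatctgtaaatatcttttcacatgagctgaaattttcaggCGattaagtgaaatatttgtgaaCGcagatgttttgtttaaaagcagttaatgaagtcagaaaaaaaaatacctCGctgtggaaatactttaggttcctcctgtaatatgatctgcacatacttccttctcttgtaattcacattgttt
DNAJC9, chr10:73247256-73247505, minus strand, lowest on 10q: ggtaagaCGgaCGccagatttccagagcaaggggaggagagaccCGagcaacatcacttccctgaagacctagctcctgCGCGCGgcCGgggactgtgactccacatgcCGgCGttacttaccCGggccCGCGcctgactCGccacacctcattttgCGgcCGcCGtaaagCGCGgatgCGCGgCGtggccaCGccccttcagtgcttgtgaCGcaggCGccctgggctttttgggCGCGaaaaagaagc
RAB18 and DNAJC9 held 19 and 26 CG dinucleotides in these regions, while NET1 held 5 and NT5C2 held 3. Among these first listed starts, a CG-rich and a CG-poor one occurred in both a risen and a fallen gene. Other starts of the same genes were not read. A start region was listed for 46 of the 53 tested genes, and their median was 21 CG dinucleotides, the same as the 21 of the 9769 tested genes with an entry. CG-rich starts of this kind are typical of genes used in most cells. At least 10 CG dinucleotides were present in 89.1% of the listed genes' regions and in 82.6% of those of all tested genes. The median was 19 for the 13 risen genes with an entry, 24 for the 11 fallen genes and 20.5 for the 22 that did not pass.

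The median of the listed long-arm genes lay above that of all tested genes, and the median of the listed short-arm genes lay close to it. On 10q, 9 of 22 tested genes rose (40.9%) and 3 fell (13.6%), against 25.5% and 32.1% of all tested genes. On 10p, 5 of 31 rose (16.1%) and 10 fell (32.3%). The median difference was 0.46 for the 10q genes and -0.04 for the 10p genes, against -0.08 for all tested genes, which puts the listed 10q genes 0.54 above the median of all genes and the listed 10p genes 0.03 above it. A positive difference was seen in 16 of 22 genes on 10q and 14 of 31 on 10p, against 46.3% of all tested genes. Called changes of at least 2-fold were upward in 8 and downward in 1 of the 22 genes on 10q, and upward in 3 and downward in 4 of the 31 on 10p (EPC1 counted by its fitted value), against 14.6% and 18.5% of all tested genes. Levels on the ADAR shRNA and scrambled arrays did not overlap for 42 of the 53 genes, against 79.3% of all tested genes.

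**Figure D1:**
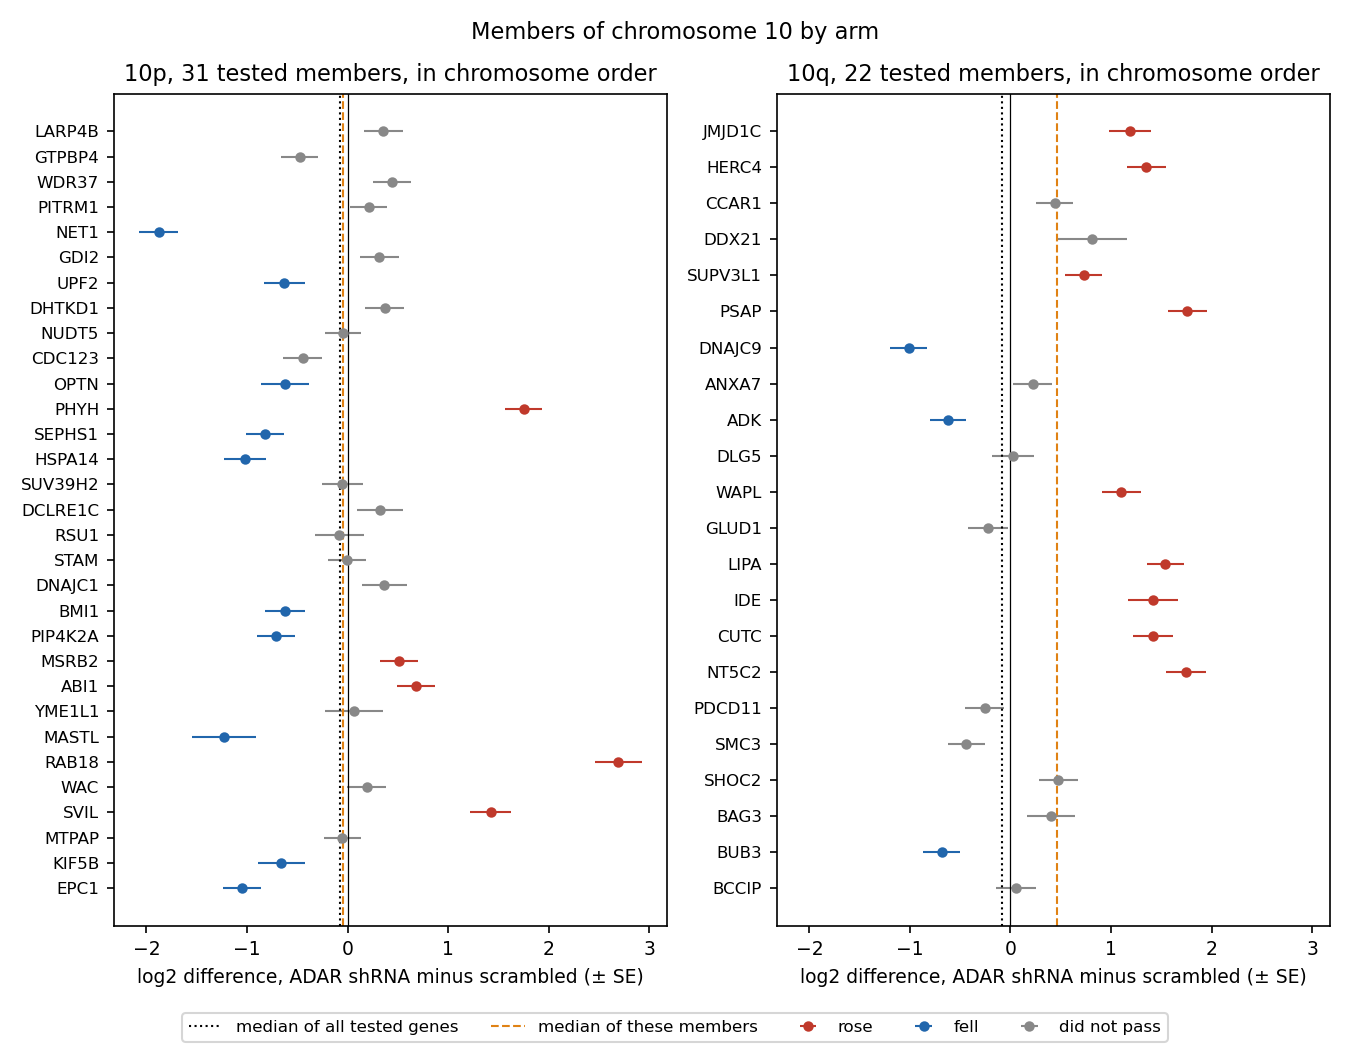
Log2 difference (ADAR shRNA minus scrambled, horizontal axis, with SE) of each tested gene of the list, in chromosome order from top to bottom, for 10p (left) and 10q (right). The dashed line of the 10q genes lies at 0.46, to the right of the dotted median of all tested genes at -0.08, while the dashed line of the 10p genes lies at -0.04.

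Array by array, the shift of the listed 10q genes had the same sign on both arrays of each group. Each gene's level was set against its own mean over the 4 arrays, and the median of these deviations was taken relative to that of all genes. For the 10q genes it was 0.33 and 0.31 on the ADAR shRNA arrays, against -0.29 and -0.25 on the scrambled arrays. For the 10p genes it was 0.03 and 0.04 on the ADAR shRNA arrays, against 0.04 and -0.06 on the scrambled arrays. The groups were thus apart for the listed 10q genes and overlapped for the listed 10p genes.

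Of the 7 tested metabolic, mitochondrial and lysosomal genes of 10q, 5 rose and 1 fell, at a median of 1.42, against 25.5% and 32.1% of all tested genes. The role groups were drawn up with results known, so their counts are a description, and the same role on 10p had 2 of 8 rising and 2 falling. PSAP, the precursor of the saposins that activate lysosomal sphingolipid breakdown, read 12.92 and 12.99 on the ADAR shRNA arrays, against 11.07 and 11.33 on the scrambled arrays. Both ADAR shRNA values lay above both scrambled values, and PSAP rose by 1.76 (SE 0.19, adjusted p = 8.30e-05), with its other probe at 1.82. Its raw signal was also higher, at 7248 and 7867 on the ADAR shRNA arrays against 2965 and 2773 on the scrambled arrays. NT5C2, a cytosolic nucleotidase that hydrolyses purine monophosphates, read 11.25 and 11.22 on the ADAR shRNA arrays, against 9.32 and 9.66 on the scrambled arrays, and rose by 1.75 (SE 0.20, adjusted p = 0.000107). LIPA, the lysosomal acid lipase, read 10.48 and 10.51 on the ADAR shRNA arrays, against 9.05 and 8.86 on the scrambled arrays, and rose by 1.54 (SE 0.19, adjusted p = 0.000155). The 2 arrays of each group lay close together for these 3 genes.

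CUTC, a copper-binding protein, read 8.47 and 8.31 on the ADAR shRNA arrays, against 7.13 and 6.82 on the scrambled arrays, and rose by 1.42 (SE 0.20, adjusted p = 0.000366). IDE, a protease that degrades insulin, read 7.61 and 7.57 on the ADAR shRNA arrays, against 6.53 and 5.81 on the scrambled arrays, and rose by 1.42 (SE 0.25, adjusted p = 0.00139). The scrambled arrays were further apart for IDE than for the others, but neither reached the ADAR shRNA values. ADK, adenosine kinase, ran the other way: it read 8.28 and 8.23 on the ADAR shRNA arrays, against 8.84 and 8.91 on the scrambled arrays, and fell by 0.62 (SE 0.18, adjusted p = 0.0174). Its 2 other tested probes read 0.42 and 0.097, and the mean of its probes did not pass (-0.03, adjusted p = 0.901). It did not pass either without ADAR shRNA replicate 1, ADAR shRNA replicate 2 or scrambled replicate 2 (adjusted p = 0.0658, 0.0840 and 0.0751). GLUD1, the mitochondrial glutamate dehydrogenase, differed by -0.23 (adjusted p = 0.362).

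Among 10q genes of chromatin, DNA and cell division, 2 of 5 rose and 1 fell, against 25.5% and 32.1% of all tested genes. JMJD1C, a jumonji-domain protein, rose by 1.19 (SE 0.21, adjusted p = 0.00134), with a second probe at 1.29. WAPL, which releases cohesin from chromosomes, rose by 1.10 (SE 0.20, adjusted p = 0.00140). BUB3, a spindle checkpoint protein, read 10.78 and 10.84 on the ADAR shRNA arrays, against 11.58 and 11.41 on the scrambled arrays, and fell by 0.69 (SE 0.19, adjusted p = 0.0121), with other tested probes at 0.17 and -1.64. BUB3 did not pass without ADAR shRNA replicate 1, ADAR shRNA replicate 2 or scrambled replicate 1 (adjusted p = 0.0733, 0.0504 and 0.0529). SMC3, a core subunit of the cohesin ring that WAPL opens, read 8.39 and 8.58 on the ADAR shRNA arrays, against 8.89 and 8.96 on the scrambled arrays, a difference of -0.44 that did not pass (SE 0.19, adjusted p = 0.0730). It passed with no background correction, with an offset of 50, with a trended and robust variance, under median scaling and without any scaling (adjusted p = 0.00111 to 0.0475). BCCIP, a BRCA2-binding protein, differed by 0.05 (adjusted p = 0.839), and its 3 other tested probes read from -0.70 to 0.39.

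Of the 4 RNA and ribosome genes on 10q, 1 rose, against 25.5% of all tested genes, and the other 3 did not pass. SUPV3L1, a mitochondrial RNA helicase, rose by 0.73 (SE 0.19, adjusted p = 0.00926). Without ADAR shRNA replicate 2 that rise was 0.64 (adjusted p = 0.0661). DDX21, a nucleolar RNA helicase, read 10.24 and 10.17 on the ADAR shRNA arrays, against 9.998 and 8.79 on the scrambled arrays, and the gap between the scrambled arrays went with an SE of 0.34 and a difference of 0.81 that did not pass (adjusted p = 0.0706). Without scrambled replicate 1 the difference was 1.45 (adjusted p = 0.00162), and it also passed with the replicate number as a block (adjusted p = 0.0107) and with no background correction (adjusted p = 0.0390). CCAR1, a transcriptional coactivator, differed by 0.44 (adjusted p = 0.0680) and PDCD11, a ribosome assembly factor, by -0.26 (adjusted p = 0.273). CCAR1 passed in the authors' processed values (0.64, adjusted p = 0.0257) and with no filter on detection (adjusted p = 0.0469). PDCD11 was dim, at 4.69 and 4.92 on the ADAR shRNA arrays, against 5.11 and 5.02 on the scrambled arrays.

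Folding, degradation and signalling genes on 10q split, with 1 of 4 tested rising and 1 falling, against 25.5% and 32.1% of all tested genes. HERC4, a ubiquitin ligase, rose by 1.35 (SE 0.19, adjusted p = 0.000411), with another probe detected on all 4 arrays at 0.96. DNAJC9, a co-chaperone of histones H3 and H4, read 8.36 and 8.32 on the ADAR shRNA arrays, against 9.40 and 9.31 on the scrambled arrays, and fell by 1.01 (SE 0.18, adjusted p = 0.00150), the lowest value among the 10q genes of the list. SHOC2, a scaffold of RAS and RAF signalling, differed by 0.48 (adjusted p = 0.0634) and BAG3, a co-chaperone of Hsp70, by 0.40 (adjusted p = 0.184). BAG3 read 0.73 without ADAR shRNA replicate 1 and passed (adjusted p = 0.0406), and SHOC2 passed with an offset of 50 (adjusted p = 0.0480). Neither of the 2 trafficking and polarity genes passed: ANXA7, an annexin, differed by 0.22 and DLG5, a scaffold of cell junctions, by 0.03.

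**Figure D2:**
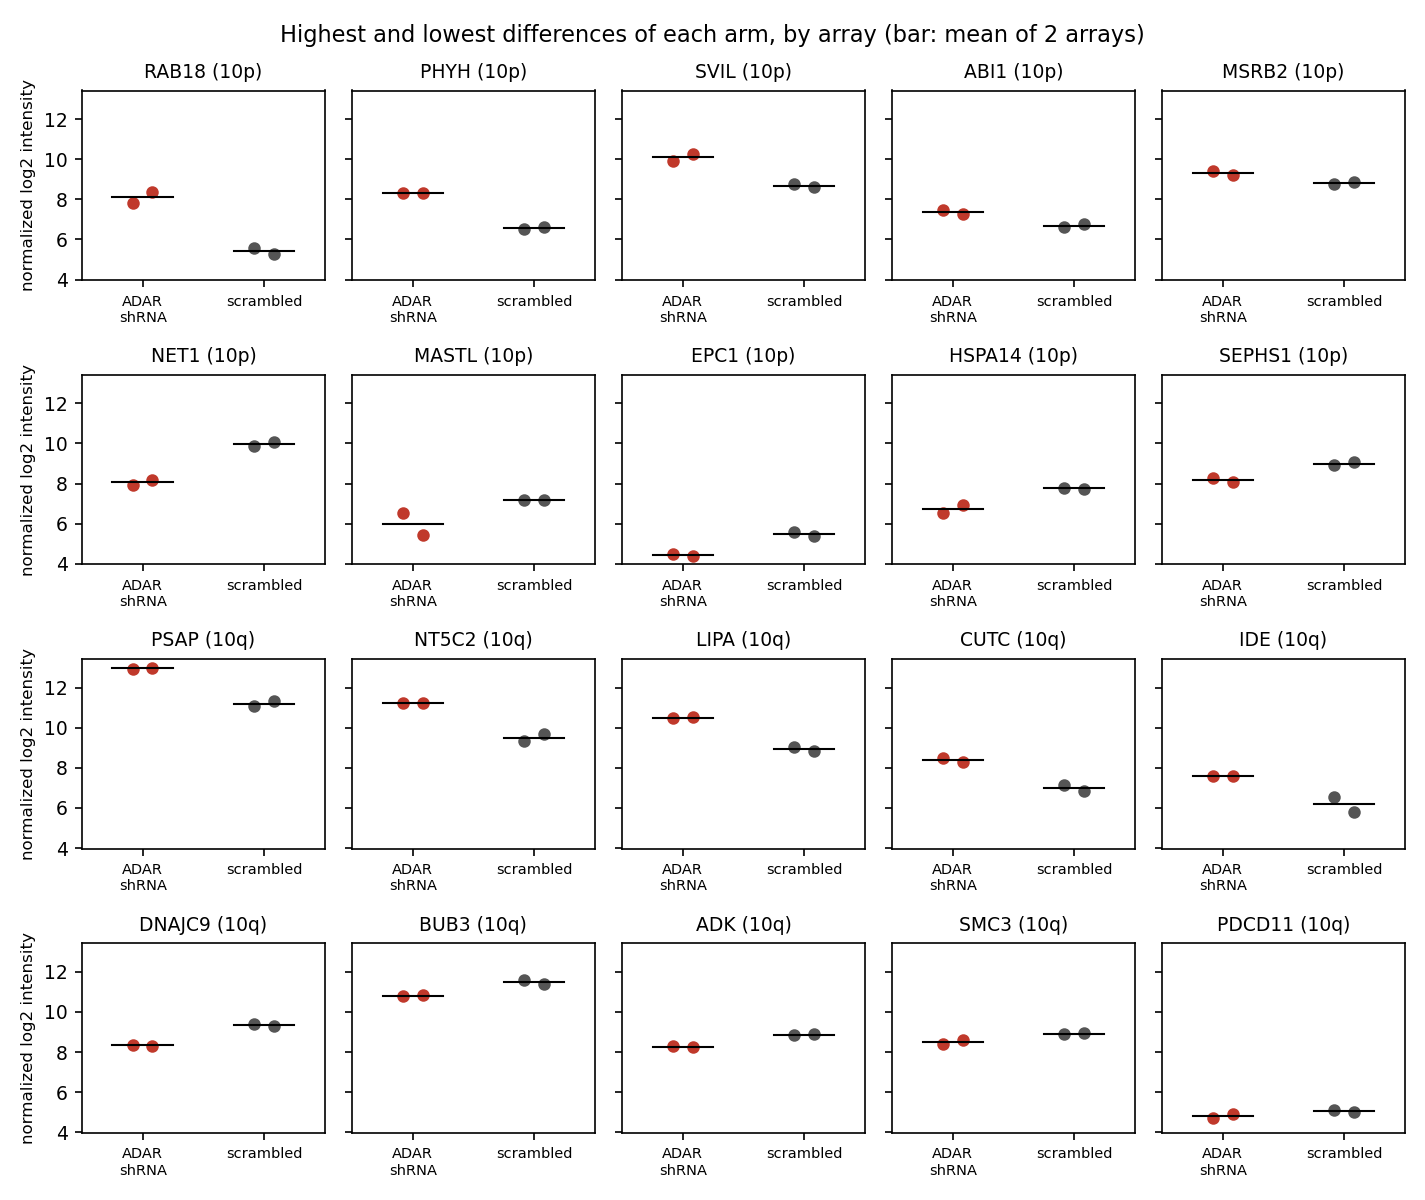
Normalized log2 intensity (vertical axis) of the 5 highest and 5 lowest differences on each arm, on the 2 ADAR shRNA arrays (left in each panel) and the 2 scrambled arrays (right), with a bar at each mean. The 2 groups do not overlap in any panel, which picking extreme differences favours, and they did not overlap for 79.3% of all tested genes. The arrays of a pair are furthest apart for MASTL on the ADAR shRNA side, at 6.51 and 5.42.

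On the short arm, trafficking, cytoskeleton and adhesion genes held both the highest and the lowest values, with 3 of 9 rising and 3 falling. The shares over all tested genes were 25.5% and 32.1%. RAB18, a small GTPase of lipid droplets and the endoplasmic reticulum, read 7.83 and 8.37 on the ADAR shRNA arrays, against 5.56 and 5.26 on the scrambled arrays, and rose by 2.69 (SE 0.23, adjusted p = 2.29e-05). SVIL, which encodes the actin-binding protein supervillin, read 9.93 and 10.28 on the ADAR shRNA arrays, against 8.76 and 8.59 on the scrambled arrays, and rose by 1.43 (SE 0.20, adjusted p = 0.000406). A dimmer SVIL probe read -0.32. ABI1, an adaptor of the WAVE actin regulatory complex, read 7.44 and 7.27 on the ADAR shRNA arrays, against 6.605 and 6.75 on the scrambled arrays, and rose by 0.68 (SE 0.19, adjusted p = 0.0136). For ABI1 the raw signals overlapped, at 166 and 149 on the ADAR shRNA arrays against 177 and 152 on the scrambled arrays, and the difference was 0.09 under median scaling and -0.04 without any scaling of the arrays. ABI1 did not pass without ADAR shRNA replicate 1 or scrambled replicate 1 (adjusted p = 0.0871 and 0.0623).

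NET1, an exchange factor that activates RhoA, read 7.95 and 8.20 on the ADAR shRNA arrays, against 9.86 and 10.05 on the scrambled arrays, and fell by 1.88 (SE 0.20, adjusted p = 6.31e-05), with another probe detected on all 4 arrays at -1.48. KIF5B, a kinesin heavy chain, fell by 0.66 (SE 0.23, adjusted p = 0.0377) and OPTN, an autophagy receptor, fell by 0.62 (SE 0.24, adjusted p = 0.04998). KIF5B did not pass without ADAR shRNA replicate 2 or scrambled replicate 1 (-0.44 and -0.45, adjusted p = 0.229 and 0.200), in the authors' processed values (adjusted p = 0.110) or when undetected genes were kept in (adjusted p = 0.0833). OPTN passed in only 7 of 15 alternative settings: it did not pass without ADAR shRNA replicate 1 (-0.31, adjusted p = 0.362) or without either scrambled array (-0.59 and -0.62, adjusted p = 0.138 and 0.140), nor with no background correction, an offset of 50, the authors' processed values, no filter on detection or a trended and robust variance (adjusted p = 0.0557 to 0.139). The remaining 3 did not pass: GDI2, which extracts RAB proteins from membranes, differed by 0.32, RSU1, a focal adhesion protein, by -0.08, and STAM, an endosomal sorting protein, by -0.005.

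Metabolic and mitochondrial genes of 10p moved both ways, with 2 of 8 rising and 2 falling, against 25.5% and 32.1% of all tested genes. PHYH, the peroxisomal enzyme that starts phytanic acid breakdown, read 8.30 and 8.33 on the ADAR shRNA arrays, against 6.50 and 6.62 on the scrambled arrays, and rose by 1.75 (SE 0.18, adjusted p = 6.43e-05), with another probe detected on all 4 arrays at 1.22. MSRB2, a mitochondrial methionine sulfoxide reductase, read 9.43 and 9.21 on the ADAR shRNA arrays, against 8.75 and 8.87 on the scrambled arrays, and rose by 0.51 (SE 0.19, adjusted p = 0.0457). The sign for MSRB2 turned under median scaling, to -0.20, and without any scaling of the arrays, to -0.33, and its rise did not pass without any one of the 4 arrays (0.40 to 0.62, adjusted p = 0.0784 to 0.242). SEPHS1, a selenophosphate synthetase homologue, read 8.27 and 8.09 on the ADAR shRNA arrays, against 8.92 and 9.07 on the scrambled arrays, and fell by 0.82 (SE 0.19, adjusted p = 0.00564). PIP4K2A, a phosphatidylinositol phosphate kinase, fell by 0.71 (SE 0.19, adjusted p = 0.0108), but not without ADAR shRNA replicate 2 (-0.60, adjusted p = 0.0837) or over the mean of its probes (-0.47, adjusted p = 0.0526). PITRM1, NUDT5, DHTKD1 and YME1L1, a mitochondrial peptidase, a nucleotide hydrolase, a dehydrogenase subunit of lysine breakdown and a protease of the inner mitochondrial membrane, did not pass, with differences from -0.04 to 0.37.

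Of the chromatin, DNA and cell division genes of 10p, 3 of 6 fell, against 32.1% of all tested genes, and the other 3 did not pass. MASTL, the Greatwall kinase of mitotic entry, read 6.51 and 5.42 on the ADAR shRNA arrays, against 7.19 and 7.19 on the scrambled arrays, and fell by 1.23 (SE 0.32, adjusted p = 0.0101). Without ADAR shRNA replicate 2 MASTL differed by -0.69 and did not pass (adjusted p = 0.0508), nor did it without scrambled replicate 2 (-1.20, adjusted p = 0.0568), in the authors' processed values (-1.53, adjusted p = 0.107) or when undetected genes were kept in (adjusted p = 0.0551). EPC1, a subunit of the NuA4 histone acetyltransferase, read 4.48 and 4.40 on the ADAR shRNA arrays, where it was not above background, against 5.58 and 5.41 on the scrambled arrays, and was at least 1.49-fold lower (adjusted p = 0.00137). That bound sets the scrambled mean against the mean, over the ADAR shRNA arrays, of the lowest detected signal or the gene's own, whichever was higher. BMI1, a Polycomb repressor subunit, fell by 0.62 (SE 0.20, adjusted p = 0.0258), but did not pass without ADAR shRNA replicate 2 (-0.46, adjusted p = 0.179) or either scrambled array (-0.55 and -0.68, adjusted p = 0.0981 and 0.0634), nor in the authors' processed values (adjusted p = 0.0509). The histone methyltransferase gene SUV39H2 differed by -0.05, WAC by 0.19 and DCLRE1C, which encodes the DNA repair nuclease Artemis, by 0.32, and none passed.

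The RNA and ribosome genes of 10p had 1 fall in 4, against 32.1% of all tested genes. UPF2, a factor of nonsense-mediated decay, fell by 0.63 (SE 0.20, adjusted p = 0.0256), with other tested probes at 0.092 and -0.52. It did not pass without ADAR shRNA replicate 1 or scrambled replicate 2 (-0.4999 and -0.49, adjusted p = 0.155 and 0.139), in the authors' processed values (adjusted p = 0.0541) or over the mean of its probes (-0.35, adjusted p = 0.135). GTPBP4, a nucleolar GTPase of the large ribosomal subunit, differed by -0.47 (adjusted p = 0.0542) and passed in 10 of 15 alternative settings. LARP4B, an RNA-binding protein, differed by 0.36 and MTPAP, the mitochondrial poly(A) polymerase, by -0.05. Of the folding and signalling genes HSPA14, a ribosome-associated Hsp70, read 6.52 and 6.94 on the ADAR shRNA arrays, against 7.77 and 7.73 on the scrambled arrays, and fell by 1.02 (SE 0.21, adjusted p = 0.00291). The other 3 of that group did not pass: CDC123, an assembly factor of the initiation factor eIF2, differed by -0.44, DNAJC1, a chaperone of the endoplasmic reticulum, by 0.37 and WDR37, a WD-repeat protein, by 0.44.

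Several genes had more than 1 probe, and the probes did not always point the same way. Among 15 genes with several probes detected on all 4 arrays, the sign was shared in 10 and differed in 5, namely ADK, BCCIP, BUB3, SVIL and UPF2. The probes of PSAP, at 1.76 and 1.82, nearly coincided. Which transcripts each probe reads was not analysed here.

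Every other tested gene of chromosome 10 was then taken by position alone, which leaves the choice of the 56 genes out. The choice of the chromosome stays in, and it was made with the same earlier values known. These counts are therefore a description too. Of 328 other genes on 10q, 158 rose (48.2%) and 45 fell (13.7%), against 25.5% and 32.1% of all tested genes, and 241 had a positive difference (73.5%). Their median was 0.48, which lies 0.56 above that of all tested genes, close to the 0.54 of the 22 listed 10q genes. On 10p, 28 of 76 other genes rose (36.8%) and 18 fell (23.7%), with a median of 0.19, or 0.27 above that of all genes. The median of the 31 listed 10p genes was thus below that of the other genes of their arm, a difference that was not tested. The 2 lists were also unlike in level. Median levels on the ADAR shRNA and scrambled arrays were 8.04 and 7.89 for the listed 10p genes, against 6.27 and 6.33 for the others. Detection on all 4 arrays held for 29 of the 31 and 52 of the 76. With no filter on detection, which adds genes not above background, the other 10q genes lay 0.12 above all genes and the other 10p genes 0.053 above them. Relative deviations of the other 10q genes were 0.30 and 0.29 on the ADAR shRNA arrays, against -0.30 and -0.32 on the scrambled arrays. Those of the other 10p genes were 0.18 and 0.15 on the ADAR shRNA arrays, against -0.16 and -0.19 on the scrambled arrays.

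**Figure D3:**
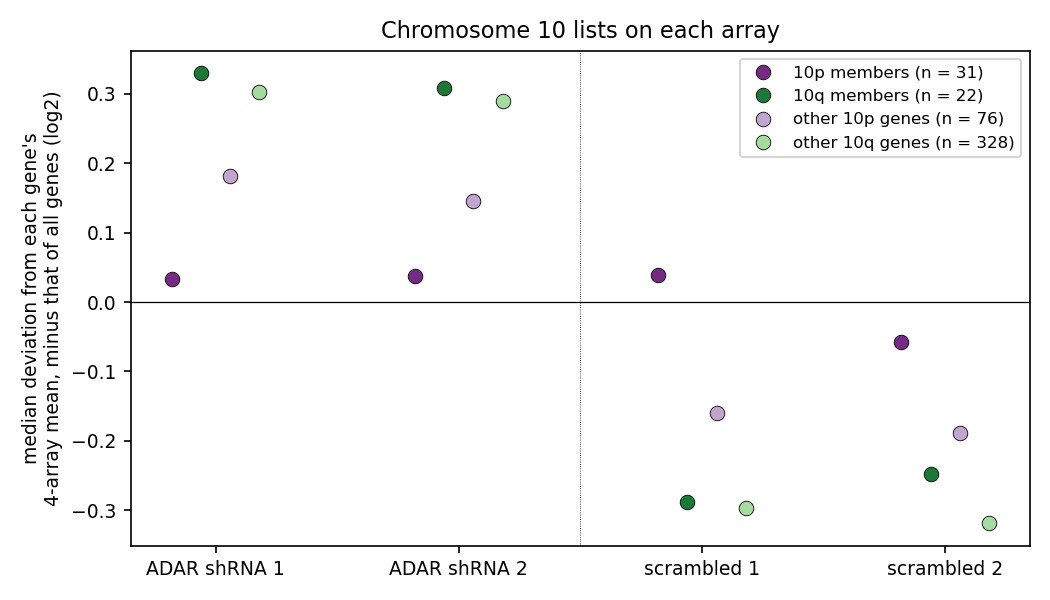
Median deviation of each list from the genes' own 4-array means, relative to all tested genes (log2, vertical axis), on each array (horizontal axis). Both 10q lists lie between 0.29 and 0.33 on the ADAR shRNA arrays and between -0.32 and -0.25 on the scrambled arrays, while the 10p members stay between -0.06 and 0.04 on all 4.

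Single genes of the chromosome moved much further than the arm, and the 2 highest and 2 lowest changed genes of each arm outside the list are given here, among those detected on all 4 arrays. On 10q, SRGN, which encodes the granule proteoglycan serglycin, read 13.84 and 13.91 on the ADAR shRNA arrays, against 9.40 and 6.67 on the scrambled arrays, and rose by 5.84 (adjusted p = 0.000126), although the trended and robust variance left it at an adjusted p of 0.0566. PPP1R3C, a glycogen-targeting phosphatase subunit, read 11.74 and 11.12 on the ADAR shRNA arrays, against 7.04 and 6.68 on the scrambled arrays, and rose by 4.57. The lowest of them were PLAU, which encodes urokinase and fell by 5.26, and DKK1, a WNT inhibitor, which fell by 2.84. PLAU read 6.77 and 6.28 on the ADAR shRNA arrays against 11.61 and 11.95 on the scrambled arrays. On 10p the near neighbours AKR1C4 and AKR1C2, aldo-keto reductases of related sequence whose probes may share transcripts, rose by 5.83 and 4.88. AKR1C4 read 12.24 and 12.10 on the ADAR shRNA arrays, against 7.61 and 5.07 on the scrambled arrays, and AKR1C2 read 12.93 and 12.85 on the ADAR shRNA arrays, against 9.87 and 6.15 on the scrambled arrays. The scrambled arrays were thus far apart for both genes, as they were for SRGN. Without scrambled replicate 1 or scrambled replicate 2 the difference was 6.85 or 3.11 for AKR1C2, 7.07 or 4.61 for AKR1C4 and 7.41 or 4.598 for SRGN. For AKR1C2 the trended and robust variance gave an adjusted p of 0.139 and the authors' processed values one of 0.0696. MCM10, a replication factor, fell by 2.64 and NRP1, a coreceptor of semaphorins and VEGF, fell by 2.10.

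Along the long arm, medians above that of all genes were found from the centromere to the end. In 17 consecutive blocks of at least 20 neighbouring tested genes, every 10q block had a median above 0, from 0.08 to 0.89, and above the -0.08 of all tested genes. Over all tested genes 25.5% rose and 32.1% fell, and the blocks named here were picked for their values. The highest was the block from EIF4EBP2 to ANXA7, which holds PSAP, where 12 of 20 genes rose and 2 fell. In the block from POLL to AS3MT, 14 of 20 rose and 1 fell. The lowest were the block from DUSP5 to ABLIM1, which holds SHOC2, at 0.08, and the block nearest the centromere, ZNF33B to SYT15, at 0.09, where 4 rose and 4 fell. On 10p the 5 blocks ran from -0.24 (FBH1 to PHYH, with 4 rising and 9 falling) to 0.27 (NEBL to YME1L1).

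**Figure D4:**
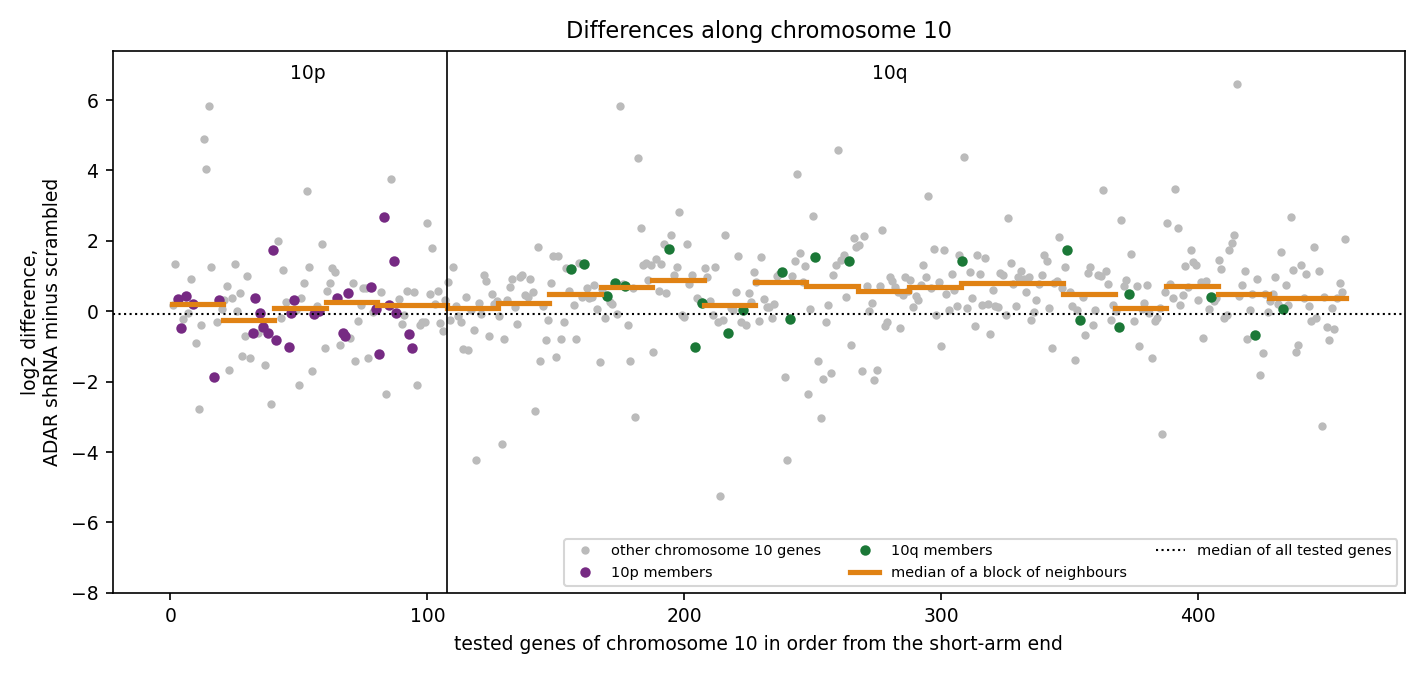
Log2 difference (ADAR shRNA minus scrambled, vertical axis) of the 457 tested genes of chromosome 10 in order from the short-arm end (horizontal axis), with members in colour and block medians as bars. All 17 bars on 10q lie above the dotted median of all tested genes at -0.08, and 4 of the 5 bars on 10p do.

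Set beside the other chromosomes, chromosome 10 had the highest median and the largest share of risen genes of the 22 autosomes and X. The chromosome was picked with earlier values of these arrays known, so this rank is a description. Of its 457 tested genes 43.8% rose and 16.6% fell, with a median of 0.39. The next highest median was that of chromosome 7, at 0.18, where 33.8% rose and 21.0% fell. The lowest medians were those of chromosome 8 at -0.56, where 49.8% fell, and chromosome 4 at -0.54, where 50.2% fell. Chromosome 10 kept the highest median in all 15 alternative settings tried, but not all of them could change the rank. The trended and robust variance and the replicate block leave the differences as they were. Median scaling and no scaling give the same order of chromosomes as each other. Chromosome 10 was therefore at one end of a range in which other chromosomes also departed from the median of all genes. Copy number was not measured on these arrays.

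**Figure D5:**
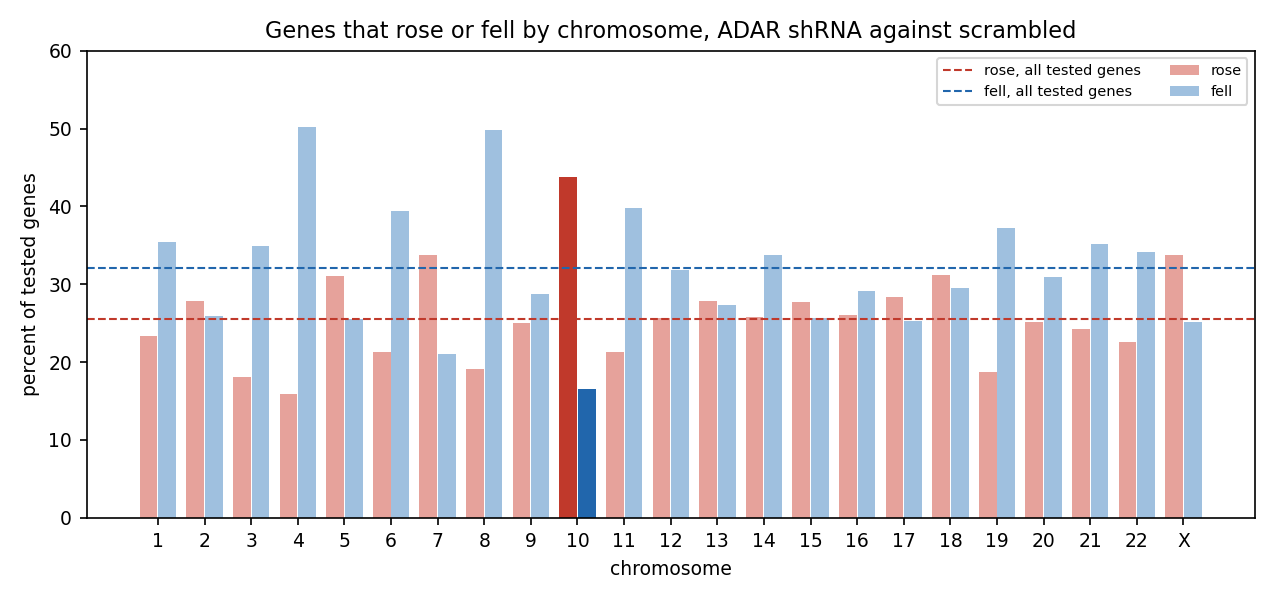
Percent of tested genes that rose (left bar) or fell (right bar) on each chromosome (horizontal axis), with chromosome 10 in full colour and dashed lines at the shares of all tested genes. Chromosome 10 stands at 43.8% risen and 16.6% fallen, against 25.5% and 32.1% of all tested genes.

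How many genes were called risen depended on how the arrays were scaled to each other, while the position of the long arm relative to all genes depended on it little. Median scaling moved the median of all genes to -0.54, and 14.2% of all tested genes then rose and 49.4% fell. Under it 5 of the 22 listed 10q genes rose and 6 fell, 3 of the 31 listed 10p genes rose and 14 fell, 95 of the 328 other 10q genes rose and 78 fell, and 17 of the 76 other 10p genes rose and 24 fell. Relative to all genes, the listed 10q genes lay at 0.50 and the other 10q genes at 0.61 under that scaling, and the listed 10p genes lay at -0.02. Leaving out the scaling gives the same relative values by construction, since it differs from median scaling by a constant on each array. It is not a separate check of them. Without any scaling 3 listed 10q genes rose and 7 fell, and 2 listed 10p genes rose and 16 fell, against 11.3% and 52.7% of all tested genes. Without scrambled replicate 1 or without scrambled replicate 2 the listed 10p genes lay at 0.10 or -0.10 relative to all genes. The 10q risers SUPV3L1, JMJD1C, WAPL and IDE did not pass under median scaling (0.11, 0.51, 0.52 and 0.84, adjusted p = 0.645, 0.0605, 0.0854 and 0.0563) or without scaling, where SUPV3L1 read -0.02, and HERC4, CUTC and the 10p gene SVIL did not pass without scaling (0.54, 0.64 and 0.64). Of the 53 tested members 27 were called, against 57.6% of all tested genes. The share of all tested genes that kept their call was not computed. Of the 27 members called, 10 kept their call in every alternative setting in which they were tested. They were RAB18, PHYH, PSAP, NT5C2 and LIPA, which rose, and NET1, EPC1, HSPA14, SEPHS1 and DNAJC9, which fell. EPC1 was tested in 12 of the 15 settings, since it did not pass the filter without either scrambled array or where detection on all 4 arrays was required. Of the 26 members that did not pass, 12 did not pass in any setting in which they were tested. BCCIP, at 0.05, was called lower under median scaling (-0.63, adjusted p = 0.0338) and without scaling (-0.76, adjusted p = 0.0258), and ANXA7 and PITRM1 were called lower without scaling (-0.58 and -0.60, adjusted p = 0.0316 and 0.0382). GLUD1, MTPAP and NUDT5 passed as lower under both of these settings, STAM without scaling, and CDC123 in 5 of 15 settings.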

How the data were processed

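The authors deposited mean signal intensity values per probe on a linear scale, with bead numbers, bead standard errors and a detection p-value, for 4 arrays, per the file headers. GenomeStudio is named in the submitters' processing notes, with no version given. The authors also deposited processed intensity values, whose normalization is not given in the sources used here, and these served only as an alternative (values under 16 were set to 16 before log2). Intensities were corrected with limma 3.58.1 (normexp from detection p-values, offset 16) in R 4.3.3, quantile normalized and log2 transformed. Of 47322 probes, 30113 had 1 gene symbol in the platform annotation, 8 had several and 17201 were unlisted and are unnamed here; 30074 matched the GRCh38.p14 gene table, which gave chromosome and arm. Probes with detection p under 0.05 on at least 2 arrays were tested, and the brightest stood for each of 12197 genes. Groups were compared with lmFit and eBayes (2-sided, 2 residual and 6.6 prior degrees of freedom) with Benjamini-Hochberg adjustment. The fit was also run on simulated data, which held far fewer changed genes than these arrays and left out normalization. That run is a check of the code and not of the results. The number of arrays limits the precision. The arrays of a pair were not copies of the same values: 18.7% of probes of the ADAR shRNA pair and 26.5% of the scrambled pair differed beyond bead error. Bead error covers only the spread within an array, so this cannot tell separate cultures from repeat arrays of the same RNA. The members, lists and role groups were chosen with earlier results of these data known. Per-array values are given for the 5 highest and 5 lowest members of each arm, with a few further members such as DDX21 named after their values were seen, and 2 highest and 2 lowest changed other genes of each arm among those detected on all 4 arrays. One blood cell marker is not reported here.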

Additional observations from a re-analysis of the deposited data

How the results depend on the processing

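Relative to the median of all tested genes, the listed 10q genes lay at 0.54 and the other 10q genes at 0.56. The listed 10q genes lay at 0.44 with no background correction, 0.44 with an offset of 50, 0.50 with median scaling or no normalization between arrays, 0.65 in the authors' processed values, 0.44 with no filter on detection and 0.51 with detection p under 0.01 on all 4 arrays. The other 10q genes lay at 0.41, 0.40, 0.61, 0.64, 0.12 and 0.62 in the same order, and 0.54 with cyclic loess. The other 10p genes, at 0.27, lay at 0.20, 0.20, 0.42, 0.24, 0.053 and 0.21 in that order, 0.30 with cyclic loess and 0.31 with the mean of all detected probes. With no filter most added genes were not above background. The listed 10p genes, at 0.035, lay at -0.019 with median scaling or no normalization and at -0.042 with no filter. Leaving out 1 array at a time gave 0.39 to 0.71 for the listed 10q genes, 0.56 to 0.62 for the other 10q genes, 0.17 to 0.40 for the other 10p genes and -0.10 to 0.17 for the listed 10p genes, and a lone array was assumed to vary like the other group. The number of changed listed 10p genes was 9 to 11 in those fits, against 15, and changed other 10p genes numbered 24, against 46, with detection p under 0.01 on all 4 arrays, where 43 of the 76 were tested. ABI1 and SUPV3L1 turned to -0.040 and -0.024 with no normalization, and MSRB2 to -0.20 and -0.33 with median scaling and no normalization. BCCIP, which had not passed, was called lower at -0.63 and -0.76 under the same pair of settings, and ANXA7 and PITRM1 at -0.58 and -0.60 with no normalization. With the replicate number as a block 7439 genes changed, against 7021, and 13 listed 10q and 15 listed 10p genes did. The numbers were not taken to pair the samples (correlation of same-numbered deviations 0.105). The cause of each movement was not tested. Dim genes such as PDCD11, EPC1 and SUV39H2 lie near background, where differences are compressed.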
